A study of Homo sapiens with 6 samples.

Results

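The amyloid precursor protein gene APP, its homologues APLP1 and APLP2, and genes of the proteases that cut their products were followed in HEK293 cells that had received SNRK. The proteases are those of BACE1 and ADAM10, and of the gamma-secretase subunits PSEN2, NCSTN, APH1A and PSENEN. These 9 genes were read by 10 of the 48701 probes of the array, taken as all probes whose target name in the deposited table is one of them. APP had 2 probes and each of the other 8 genes had 1. All 10 were detected on all 6 arrays and passed the filter on dim probes, as did 14964 probes of the whole array. APP was chosen by the strong rise of 1 of its probes in the comparison described here, so its values are a description and carry no test. The other 8 genes were selected for their place in the same pathway, with earlier results of these data known.

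HEK293 is an established human line derived from embryonic kidney. One group of 3 arrays came from cells transfected with the plasmid pEGFPN3, which codes for green fluorescent protein, and is called GFP here. The other group of 3 came from cells that received SNRK-pEGFPN3, the same plasmid carrying human SNRK, a kinase of the family of AMP-activated protein kinase, and is called SNRK. RNA of both was taken 48 hours after a transient transfection, in the same medium and with the same lipid reagent. No untransfected cells were among the samples, so both groups share the transfection. Whether the cells that received SNRK also made the fluorescent protein was not examined. The labels do not say whether replicates were separate cultures, and p-values below rest on the spread among the arrays alone, and that spread may be technical. The arrays read RNA of the whole dish, so a change in the share of cells that carry a transcript and a change in its amount per cell cannot be told apart.

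APP is a single-pass membrane protein that is best known in the brain but is made by most cell types. ADAM10, an alpha-secretase, or BACE1, the beta-secretase, first sheds its large outer part. Gamma-secretase then cuts the stub within the membrane, and the cut after BACE1 releases amyloid-beta. The complex needs a presenilin as its catalytic subunit, nicastrin (NCSTN), an APH1 protein and PEN-2, the product of PSENEN. APLP1 and APLP2 are cut by the same kinds of enzyme but lack the amyloid-beta sequence.

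The array medians lay between 93.8 and 102 intensity units, and between 15133 and 16190 probes per array were detected at a detection p under 0.01. Correlations between arrays over the kept probes ran from 0.976 to 0.996. The SNRK probe itself read 350, 382 and 372 units in the GFP group and 485, 460 and 458 units in the SNRK group, with no overlap. Its log2 change was 0.44 (SE 0.09, limma adjusted p = 0.0219), a call held in 3 of the 6 fits with 1 array left out. Whether that probe can read the transcript of the plasmid is not known here. Of the markers of the line, KRT8, KRT18, VIM, NEFL, NEFM and CDH2 were detected in all arrays and none passed the test in limma (1 had an unadjusted p under 0.05), while PAX2 was detected on at most 1 array per group. Of 16 markers of other cell types, 6 were measured, among them the synaptic genes SNAP25, SYP and SYT1. Of these 6, 1 passed, the macrophage marker CD68, which fell by 0.51 on the log2 scale (adjusted p = 0.0457). PTPRC, CD3E, GFAP, AQP4 and STMN2 were detected on no array.

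The 2 APP probes behaved very differently. Probe ILMN_1678152 read 209, 185 and 187 intensity units in GFP replicates 1 to 3, and in SNRK replicates 1 to 3 it read 538, 606 and 578. The groups were far apart, since the lowest SNRK array, at 538, stood well above the highest GFP array, at 209. After background correction and quantile normalization its log2 signal was 7.04, 6.83 and 6.90 in GFP cells, and it ran from 8.87 to 9.07 in SNRK cells. The means were 6.93 ± 0.11 and 8.98 ± 0.10 (SD, 3 arrays each), a difference of 2.05 (SE 0.09) or 4.15-fold. No other of the 14964 kept probes had a larger rise. The next in order were a probe of WDR79 at 1.88 (the present name of this gene is WRAP53) and one of GPSM1 at 1.71.

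The size of this difference depended on the processing. Without background correction the log2 change was 1.48. With a maximum likelihood background model, which also used an offset of 50 in place of 16, it was 1.67. In the authors' processed values, whose exact processing is not stated, it was 1.16. Which step changed the size was not tested. In the last table the probe stood at 254, 239 and 243 in GFP and at 516, 576 and 550 in SNRK cells. The direction was the same in all 17 alternatives, and with 1 array left out the change lay between 1.99 and 2.11.

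The second probe, ILMN_1653283, read 378, 390 and 393 units in GFP and 442, 543 and 421 units in SNRK cells. On the log2 scale it stood at 8.20, 8.27 and 8.38 in GFP and at 8.53, 8.86 and 8.46 in SNRK cells. The groups did not overlap here either, but the highest GFP and the lowest SNRK array were close, and SNRK 2 stood above the other SNRK arrays. The difference was 0.33 (SE 0.12) or 1.26-fold, exceeded by 1589 kept probes, and it was 0.21 without SNRK 2 and 0.41 without SNRK 3. Within each array, the first probe's log2 signal minus the second's was -1.16, -1.44 and -1.47 in GFP and 0.34, 0.20 and 0.54 in SNRK cells. The 2 probes therefore did not change by the same amount. Probe sequences were not used here, so which APP transcripts each probe reads is not known.

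**Figure D1:**
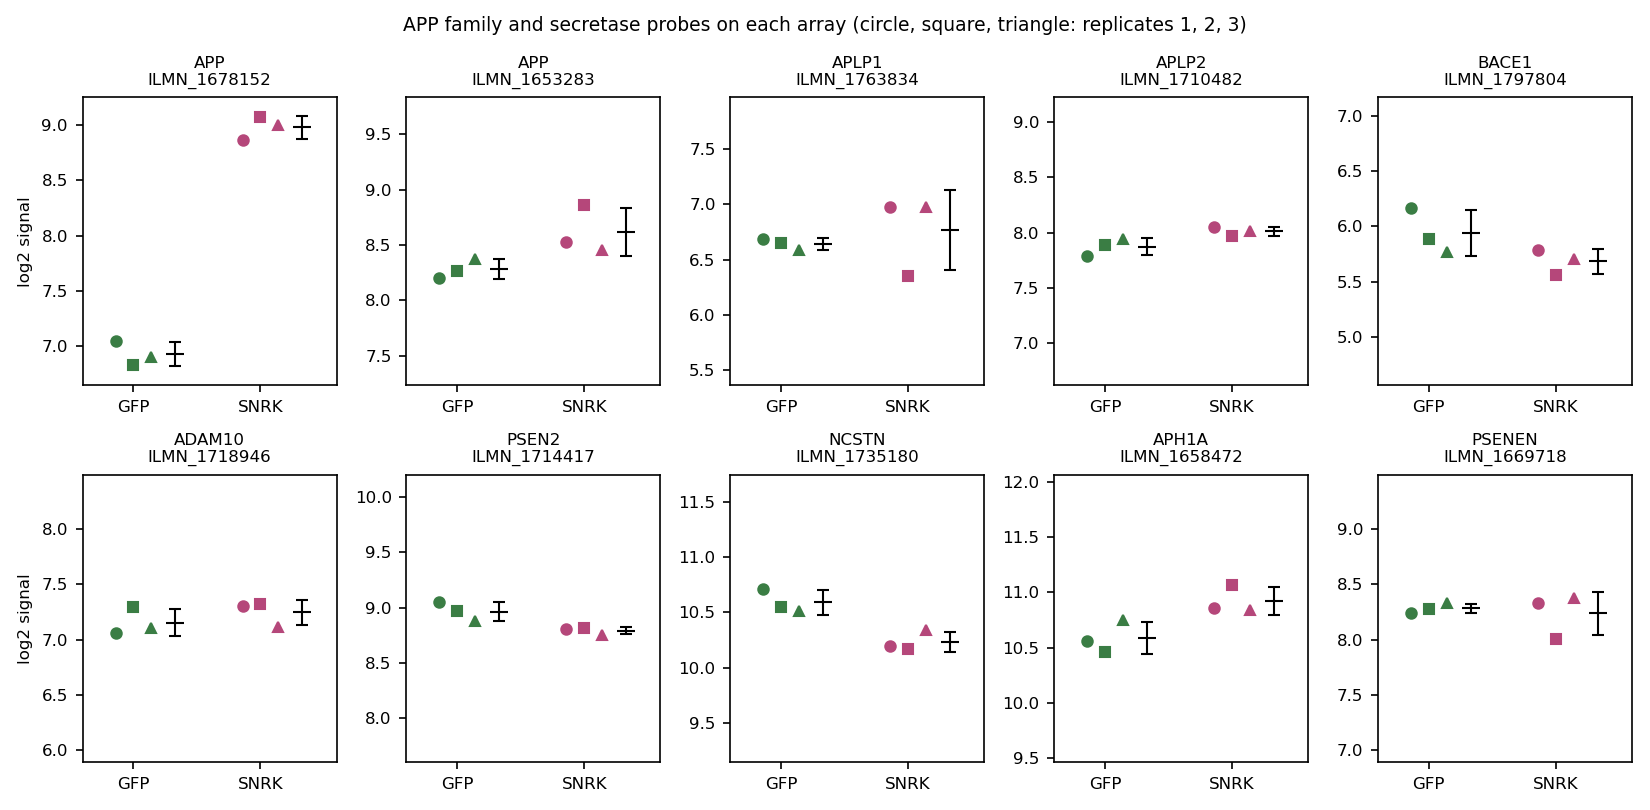
Log2 signal (vertical axis, each panel spanning the same range) of the 10 probes on the 3 GFP and 3 SNRK arrays. Points are arrays and black marks the mean with its SD. The first APP probe moves from 6.93 to 8.98, while the other 9 probes change by 0.35 or less.

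Such a gap between probes of a gene was uncommon on this array. Over the 1000 named genes with exactly 2 kept probes, the median gap between their log2 changes was 0.21, and 24 genes had a gap above 1. APP, at 1.72, was the fifth of them. Over all 1285 genes with 2 or more kept probes, 5 had a larger gap, named here after their values were seen. They were ZNF703 (2.31), CTDSP1 (2.24), RNF126 (1.95), GPSM1 (1.86) and SMARCC2 (1.81). Each of these 5 genes had by sign at least 1 probe that was higher and 1 that was lower in SNRK cells. The values were 1.67 and -0.64 for ZNF703, 1.46 and -0.78 for CTDSP1, and 0.94 and -1.01 for RNF126. They were 1.37 and -0.44 for SMARCC2, and 1.71, 0.50 and -0.15 for the 3 probes of GPSM1. APP differed from them in that both of its probes were higher in SNRK cells. APP was picked for this change, so its place among the genes is a description. Without background correction the 2 APP probes changed by 1.48 and 0.27, and in the authors' processed values by 1.16 and 0.23. The gaps of other genes and the place of APP were not worked out for those values.

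**Figure D2:**
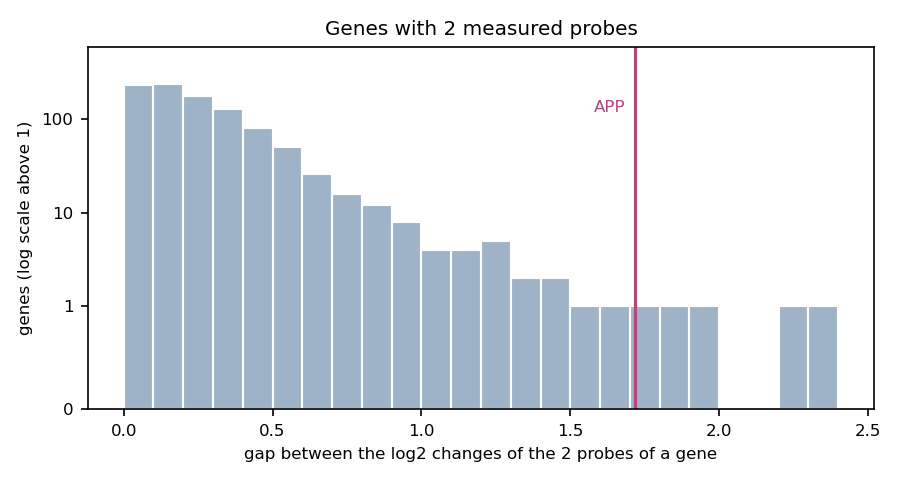
Histogram of the gap between the log2 changes of the 2 probes of a gene (horizontal axis) against the number of genes (vertical axis, logarithmic above 1) for the 1000 genes with 2 kept probes. The line marks APP at 1.72, with 4 genes beyond it.

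The RefSeq table of start sites on GRCh38.p14 matched all 9 genes, with 12 windows of 300 bases in all, each from 250 bases before a start to 50 after it. APP has 2 windows, and they are shown because its 2 probes differed. Both lie on the minus strand of chromosome 21, at chr21:26171079-26171378 and chr21:26170721-26171020, and the starts are 358 bases apart. They are printed 5′ to 3′ on the strand of the gene, and capitals mark any match to the 4 motifs searched on both strands. These were the GC box GGGCGG, the CCAAT box CCAAT, the TATA box TATAAA and the E-box CACGTG, and no matches of different motifs overlapped in the APP windows.
APP window 1: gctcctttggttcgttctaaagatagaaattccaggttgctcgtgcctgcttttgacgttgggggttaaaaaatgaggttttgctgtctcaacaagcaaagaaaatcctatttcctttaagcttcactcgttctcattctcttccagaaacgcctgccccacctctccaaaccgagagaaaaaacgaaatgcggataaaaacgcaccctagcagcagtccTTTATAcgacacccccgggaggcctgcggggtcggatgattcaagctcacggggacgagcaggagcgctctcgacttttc
APP window 2: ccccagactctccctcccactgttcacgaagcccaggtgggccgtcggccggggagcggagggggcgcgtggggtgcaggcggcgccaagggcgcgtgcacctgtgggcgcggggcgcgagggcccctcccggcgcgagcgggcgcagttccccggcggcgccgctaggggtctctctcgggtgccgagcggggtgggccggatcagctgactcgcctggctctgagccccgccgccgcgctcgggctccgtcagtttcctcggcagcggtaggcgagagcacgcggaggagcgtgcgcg
The first window has 49.3% G and C and 1 match, TTTATA, the TATA box letters read on the other strand, 30 to 25 bases before the start. The second has 77.3% G and C and no match. Of all 35116 windows of this length, 45.0% hold the GC box, 34.6% the CCAAT box, 11.5% the TATA box and 7.26% the E-box. APLP1 had 7 GC box matches in its window and APLP2 had 5, against 0 in both APP windows. Among the secretase genes, PSEN2 had 3 GC box matches, BACE1 had 2, 0 and 1 in its 3 windows with 1 CCAAT box in the third, and APH1A had 1 with 2 CCAAT boxes. ADAM10 had 1 GC box and 1 E-box, and the windows of NCSTN and PSENEN held none of the 4 motifs. A match describes the letters only.

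Genes whose log2 signal over the 6 arrays followed each APP probe most closely were found by Pearson correlation among the kept probes with a gene name. For ILMN_1678152 they were NRP1 (r = 0.9997), SHKBP1 (0.998), FOXM1 (0.995), FEN1 (0.993) and TRIM41 (0.992). The 6 points fall into 2 groups of 3, so these values mostly restate the difference between the groups and are given as a description. NRP1 encodes neuropilin 1, a receptor for semaphorins and vascular endothelial growth factor that is itself shed by ADAM10. Its probe ILMN_1742547 read 113, 102 and 104 in GFP and 177, 190 and 172 in SNRK cells. No GFP array detected it, and in SNRK cells it was at least 2.63-fold higher, a lower limit on the background-corrected scale, set against the lowest detected signal of each GFP array. Its fitted log2 change of 1.57 became 0.62 without background correction and 0.36 in the authors' processed values. Like APP, NRP1 had a second probe with a smaller change, ILMN_1699574 at 0.37.

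The log2 changes of the others were 0.77 for FOXM1, which codes for a forkhead factor of the cell cycle, and 0.45 for FEN1, a flap endonuclease of DNA replication. They were 0.42 for SHKBP1 and 0.57 for TRIM41, a ubiquitin ligase gene. These genes were selected for following the APP probe, so no test of their change is given. For the second APP probe the closest were ARSB (0.999), PRRG4 (0.998), GPR161 (0.997), ZNF346 (0.996) and CDC14B (0.996). Their log2 changes ran from 0.36 to 0.67, and like the APP probe they were highest on SNRK 2.

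Neither homologue of APP passed the test. APLP1, whose product is found mainly in neurons, read 179, 172 and 164 units in GFP and 205, 165 and 197 units in SNRK cells. On the log2 scale these were 6.69, 6.65 and 6.59 in GFP and 6.97, 6.35 and 6.98 in SNRK cells. SNRK 1 and SNRK 3 lay above all GFP arrays and SNRK 2 below them, so the groups overlapped. The difference was 0.13 (95% confidence interval -0.25 to 0.50, adjusted p = 0.635). Without SNRK 2 it was 0.34 (adjusted p = 0.0609), while it was 0.02 without SNRK 1 and 0.02 without SNRK 3.

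APLP2, the more widely made homologue, read 302, 317 and 310 units in GFP and 342, 332 and 326 units in SNRK cells. All SNRK arrays were above all GFP arrays, by a small margin. Its log2 level was 7.87 ± 0.07 in GFP and 8.01 ± 0.04 in SNRK cells (SD, 3 arrays each). The difference of 0.14 (95% confidence interval -0.05 to 0.33) did not pass (adjusted p = 0.280).

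Of the enzymes that make the first cut, BACE1, the beta-secretase, read 148, 130 and 124 units in GFP and 135, 129 and 124 in SNRK cells. The groups overlapped, and its log2 change was -0.26 (95% confidence interval -0.53 to 0.02, adjusted p = 0.188). Without background correction it was -0.10. ADAM10, a metalloprotease with many membrane substrates, read 210, 231 and 204 units in GFP and 236, 245 and 209 units in SNRK cells. These groups overlapped as well, with a log2 change of 0.09 (95% confidence interval -0.14 to 0.32, adjusted p = 0.560).

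Of the 4 genes of gamma-secretase subunits, 1 passed the test. NCSTN, which codes for nicastrin, the large glycoprotein subunit, read 1845, 1637 and 1470 units in GFP and 1224, 1210 and 1375 in SNRK cells. Every SNRK array was below every GFP array. Its log2 level fell by 0.35 (SE 0.09), from 10.59 ± 0.11 to 10.24 ± 0.09 (SD, 3 arrays each), a 1.28-fold fall (adjusted p = 0.0433). The call was close to the threshold. It was lost without GFP 1 (log2 change -0.29, adjusted p = 0.160), GFP 2 (-0.38, 0.120), GFP 3 (-0.39, 0.0550), SNRK 1 (-0.34, 0.128) or SNRK 2 (-0.32, 0.104), and kept without SNRK 3 (-0.40, 0.0343). It was also lost without the detection filter (adjusted p = 0.0908) and under a limit of 1.5-fold.

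APH1A, which codes for the scaffold subunit, was on the other side. It read 1647, 1538 and 1697 units in GFP and 1863, 2161 and 1924 units in SNRK cells, again with no overlap, and SNRK 2 was highest. The difference was 0.33 (SE 0.11, 95% confidence interval 0.09 to 0.58) and did not pass (adjusted p = 0.0754). It passed in 5 of the 17 alternatives, among them the one without background correction (0.32, adjusted p = 0.0322) and the authors' processed values (0.31, adjusted p = 0.0400). The signs of the NCSTN and the APH1A difference were the same in all 17. Whether the 2 differences differ from each other was not tested.

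PSEN2, 1 of the presenilin genes, read 625, 594 and 521 units in GFP and 521, 527 and 504 in SNRK cells. On the log2 scale the SNRK arrays, at 8.81, 8.82 and 8.75, were all below the GFP arrays, at 9.05, 8.97 and 8.88. The difference was -0.17 (95% confidence interval -0.36 to 0.02, adjusted p = 0.198). PSENEN, the gene of the smallest subunit, read 387, 391 and 382 units in GFP and 395, 340 and 401 in SNRK cells, where SNRK 2 was low and the other 2 arrays were high. Its difference was -0.05 (95% confidence interval -0.30 to 0.21, adjusted p = 0.810), and it was 0.07 without SNRK 2.

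**Figure D3:**
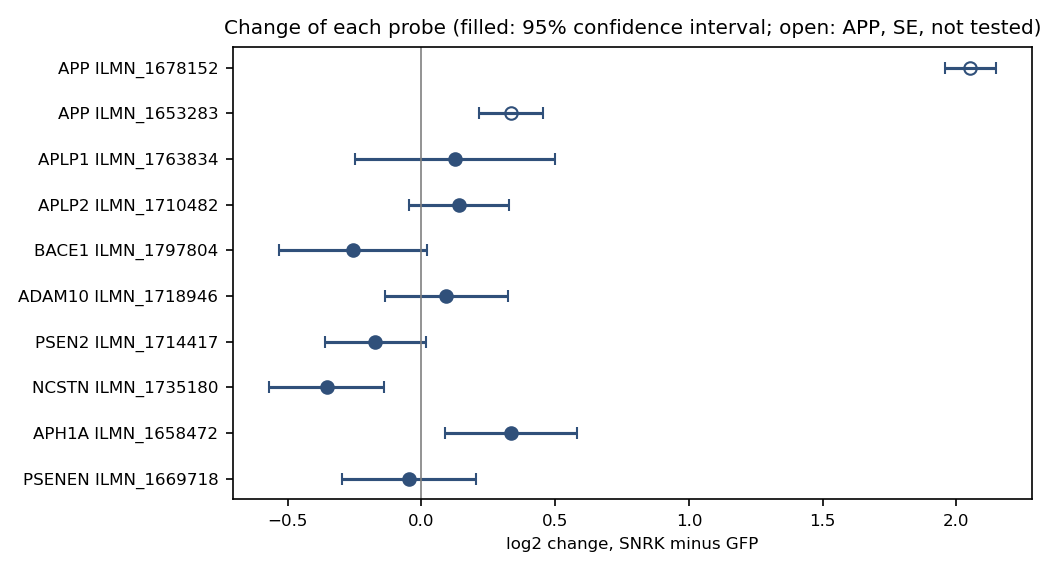
Log2 change, SNRK minus GFP (horizontal axis), of each of the 10 probes. Filled circles carry the 95% confidence interval, and open circles are the APP probes with their SE and no test. Only the interval of NCSTN and that of APH1A leave out 0, on opposite sides, and APH1A did not pass after adjustment.

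Of the 8 genes other than APP, 1 fell and 0 rose in limma, while 2 had an unadjusted p under 0.05, of which 1 was higher. An unadjusted p under 0.05 was found for 31.1% of all kept probes. Of all kept probes 12.9% passed, made up of 6.88% that were higher and 6.06% that were lower in SNRK cells. The share of 1 in 8 is near that background. The 2 groups did not overlap for 4 of the 8 genes, against 36.4% of all kept probes. By sign alone, 4 of the 8 were higher and 4 lower. SNRK 2 was the highest or the lowest of the SNRK arrays at all 10 probes, 5 times each, and over all kept probes it was so at 72.4%. SNRK 3 was so at 7 of the 10 and also at 72.4% of all kept probes. Within the GFP group, GFP 1 was so at 9 of the 10 and GFP 3 at 8, with 68.8% and 74.0% of all kept probes. SNRK 1 and GFP 2 were so at 3 each, with 55.7% and 57.8%. The part of SNRK 2 in the results was not tested beyond the values given without it.

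**Figure D4:**
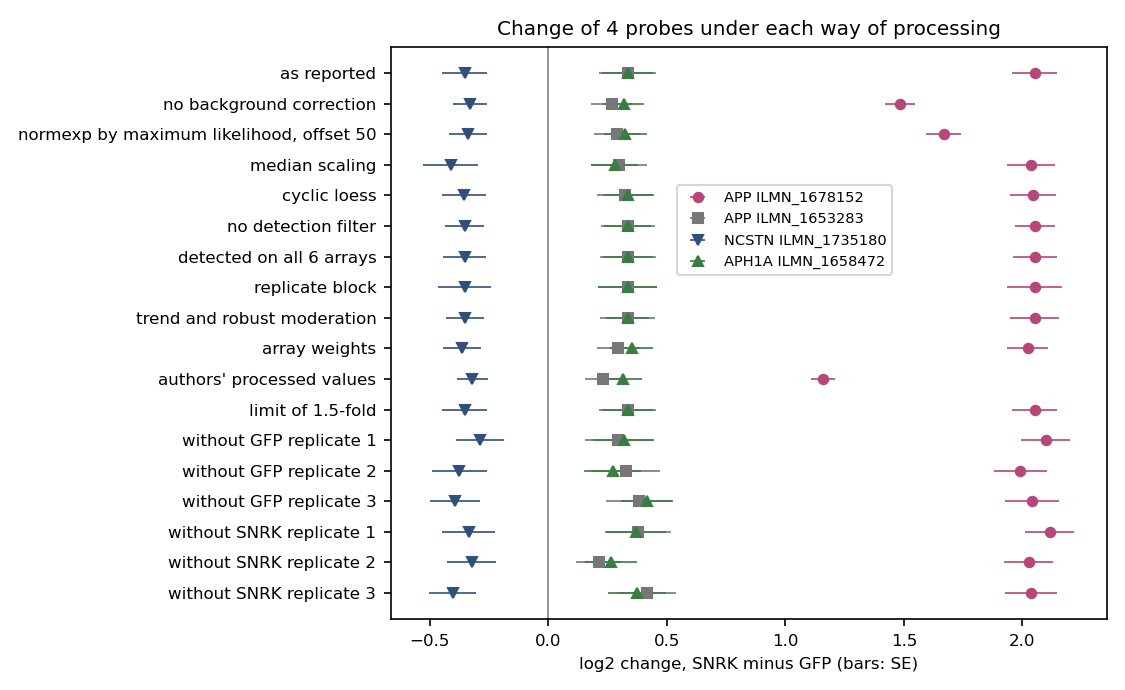
Log2 change, SNRK minus GFP (horizontal axis, bars are SE), of the 2 APP probes, NCSTN and APH1A under each way of processing (vertical axis). The first APP probe ranges from 1.16 to 2.11, with 1.16 in the authors' processed values and 1.48 without background correction, and no probe changes side of 0.

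Genes around APP processing were described in 6 lists of 165 genes in all, of which 125 were measured. Each gene was read by its brightest kept probe. Of the 125, 16 rose and 11 fell (12.8% and 8.80%), against 7.44% and 5.76% of all 10072 named genes, and the median log2 change was 0.01, against -0.00228 over all named genes. No test of the lists was made. Counted among these calls are CLSTN3, ECE1 and SEZ6L2, whose probes passed the detection filter only through the group where they were higher. These counts depended strongly on single arrays, with 3 higher and 2 lower without GFP 1, 2 and 1 without GFP 2, 4 and 1 without SNRK 1, and 8 and 2 without SNRK 2. Leaving out GFP 3 gave 16 higher and 10 lower, and leaving out SNRK 3 gave 23 and 14. Of the 27 calls, 2 were kept in all 6 fits with 1 array left out, those of FURIN and EPHB4. Without background correction 14 of the 27 were smaller by over 1.5 times on the log2 scale, as were 18 in the authors' values, and 0 changed sign. RAB11B went from 1.27 to 0.68 and 0.45, CLSTN3 from 0.98 to 0.36 and 0.20, ECE1 from 0.58 to 0.20 and 0.11, and EPHB4 from -1.15 to -0.61 and -0.40.

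Of 25 measured adaptors and partners of the APP tail, 2 rose and 2 fell, with a median change of 0.09. KLC2, a kinesin light chain gene of the motor that carries vesicles along axons, rose by 0.75 (adjusted p = 0.0128). A dimmer KLC2 probe, detected on no GFP array, was at least 1.39-fold higher. It was kept only through the SNRK arrays, so no test of it is given. MAPK8IP2, a scaffold of JNK signalling that binds the APP tail, rose by 0.41 (adjusted p = 0.0249). APBA3, an adaptor of the X11 family, fell by 0.35 (adjusted p = 0.0356). GRB2, an adaptor of receptor signalling named after its values were seen, rose by 0.40 at its dimmer probe (adjusted p = 0.0466) and had 0.19 at the brighter one (adjusted p = 0.150).

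Of 29 genes of sorting and endocytosis of APP and BACE1, 4 rose and 2 fell, with a median of -0.00351. RAB11B, a small GTPase of recycling endosomes, rose by 1.27 (adjusted p = 0.0128). VPS26B, a retromer subunit, rose by 0.56 (adjusted p = 0.00820), LRPAP1, the chaperone of lipoprotein receptors of the LRP family, by 0.57 (adjusted p = 0.0102), and RTN2, a reticulon gene, by 0.68 (adjusted p = 0.0116). FLOT2, a flotillin gene, fell by 0.44 (adjusted p = 0.0280). The other gene that fell, SNX27, a cargo adaptor of retromer, is outside the naming rule and is added with its values known, at -0.35 (adjusted p = 0.0399).

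Of 20 genes of other sheddases, their activation and their inhibitors, 1 rose and 4 fell, with a median of -0.18. Over all named genes 7.44% rose and 5.76% fell, and the list was not tested against them. FURIN, the proprotein convertase that removes the prodomains of ADAM10 and BACE1, rose by 0.99 (SE 0.13, adjusted p = 0.00542), and its highest adjusted p with 1 array left out was 0.0330. The FURIN change became 0.61 without background correction and 0.43 in the authors' processed values. TSPAN17, a tetraspanin that binds ADAM10, fell by 0.54 (adjusted p = 0.0274). ADAM19 fell by 0.46 (adjusted p = 0.0169) and RHBDF1, the iRhom1 gene, by 0.36 (adjusted p = 0.0423). ADAM15 fell by 0.34 at its brightest probe (adjusted p = 0.0499). Of its dimmer probes, 1 had -0.27 (adjusted p = 0.129) and another rose by 0.67 (adjusted p = 0.00772). With 1 array left out, the call of ADAM19 held in 3 of the 6 fits and that of TSPAN17 in 2. The calls of ADAM15 and RHBDF1 held in 1 each. PCSK6, a convertase related to furin and also named with its values known, had 0.01 at its brightest probe. Of its dimmer probes, 2 rose by 0.75 (adjusted p = 0.0134 and 0.0258) and another had 0.14 (adjusted p = 0.421). The last, not seen on the SNRK arrays, was at least 1.43-fold lower on them. It was kept only through the GFP arrays, so no test of it is given.

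Of 14 homologues and regulators of gamma-secretase, 4 rose and 0 fell in limma, with a median of 0.10 (5 higher and 1 lower at an unadjusted p under 0.05, a limit passed by 31.7% of all named genes). SPPL2B and SPPL3, intramembrane proteases of the signal peptide peptidase family related to presenilins, rose by 0.59 (adjusted p = 0.0198) and 0.46 (adjusted p = 0.0411). A second SPPL2B probe had 0.55 and did not pass (adjusted p = 0.150). BSG, which codes for basigin, rose by 0.37 (adjusted p = 0.0481). RER1, a retrieval receptor that holds unassembled subunits in the early secretory pathway, rose by 0.33 (adjusted p = 0.0407). With 1 array left out, these 4 calls were each lost in 3 or more of the 6 fits, and that of SPPL3 in all 6.

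Of 28 other substrates of the same proteases, 3 rose and 2 fell, with a median of -0.00380. EPHB4, an ephrin receptor gene, fell by 1.15 (SE 0.13, adjusted p = 0.00325). CLSTN1 and CLSTN3, calsyntenin genes of synaptic membrane proteins, were higher by 0.65 (adjusted p = 0.0317) and 0.98. CLSTN3 was detected on 1 of 3 GFP arrays and kept only through the SNRK arrays. Its call, counted above, is therefore not given as a test. A second CLSTN1 probe had 0.54 and did not pass (adjusted p = 0.143). EFNB1, an ephrin gene, rose by 0.54 (adjusted p = 0.0428). SEZ6L2, a relative of the BACE1 substrate SEZ6, was at least 1.18-fold lower in SNRK cells at probe ILMN_1704746, which no SNRK array detected. That probe was kept only through the GFP arrays, so its call, counted above, is not given as a test. Its fitted log2 change of -0.55 became -0.18 without background correction and -0.09 in the authors' processed values. Another SEZ6L2 probe, ILMN_1793850, was detected on 2 SNRK arrays and on 0 GFP arrays and was not kept.

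Of 10 genes of amyloid-beta degradation and its carriers, 2 rose and 1 fell, with a median of 0.18. The lysosomal protease genes CTSB and CTSD went opposite ways, with CTSB up by 0.67 (adjusted p = 0.0351) and CTSD down, at -0.67 (adjusted p = 0.0392). ECE1, the gene of an endothelin-converting enzyme that also degrades amyloid-beta, was higher by 0.58 and was detected on 2 of 3 GFP arrays. Its probe was kept only through the SNRK arrays, so its call, counted above, is not given as a test.

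**Figure D5:**
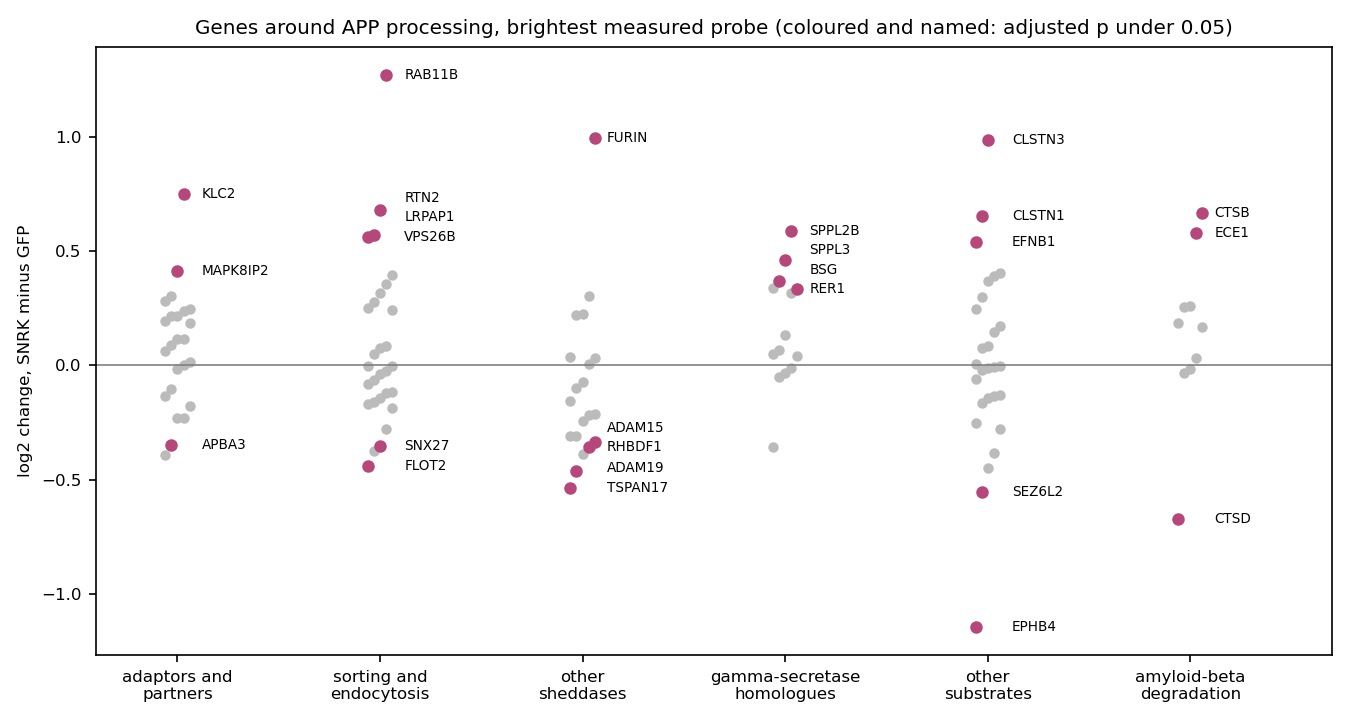
Log2 change, SNRK minus GFP (vertical axis), of the measured genes of the 6 lists (horizontal axis), each by its brightest kept probe. Named points passed at an adjusted p under 0.05, 16 above and 10 below 0, from 1.27 for RAB11B to -1.15 for EPHB4. The probes of CLSTN3, ECE1 and SEZ6L2 passed the detection filter only through the group where they were higher.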

How the data were processed

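Total RNA of HEK293 cells was hybridised as biotinylated cRNA to Illumina bead arrays, per the labels' protocols. The authors deposited a table with a linear signal intensity and a detection p-value per probe and array, whose distributions differ between arrays, and a table of processed intensity values with a median of 170 on every array. The submitters' processing notes name lumi, and its steps and any centring are not stated there.

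Intensities were corrected with neqc in limma 3.58.1 (R 4.3.3, negative controls inferred from detection p-values, offset 16, quantile normalization, log2). Probes with a detection p under 0.01 on all 3 arrays of a group were kept. lmFit and eBayes were run on all 6 arrays with no covariate, two-sided. P-values were adjusted by Benjamini-Hochberg over the 14964 kept probes, with calls at an adjusted p under 0.05. The fit was tested on simulated data. The number of arrays limits the precision.

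Members and lists were chosen with earlier results of these data known. The naming rule took all member probes, SNRK, up to 5 called genes per list by smallest p, and the 5 genes most like each APP probe. Names follow the RefSeq table (18810 probes matched by symbol, 2810 by an older one). The values of 1 called gene of the adaptor list are not reported here, and it is not drawn.

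Alternatives were 2 other background settings, 2 other normalizations, 2 other detection filters, a replicate block, trend and robust moderation, array weights, the authors' values, a 1.5-fold limit and each array left out.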

Additional observations from a re-analysis of the deposited data

How the results depend on the processing

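The first APP probe moved from 2.05 to 1.48 without background correction, to 1.67 with the maximum likelihood model (offset 50) and to 1.16 in the authors' processed values. Among the other 8 member genes, the count of 0 higher became 1 (APH1A) without background correction, with the maximum likelihood model, with trend and robust moderation, with array weights and in the authors' values. The count of 1 lower (NCSTN) became 0 without the detection filter, under the 1.5-fold limit and with the replicate block (adjusted p = 0.108), and lay between 0 and 1 with 1 array left out. With 1 array left out, the count of members higher stayed at 0. The other 6 members passed in 0 of the 17 alternatives.

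Over all kept probes, 1030 higher and 907 lower became 349 and 320 without the detection filter, 390 and 416 under the 1.5-fold limit, 2193 and 2073 with array weights, and 124 to 1399 and 172 to 1263 with 1 array left out. The 16 higher and 11 lower genes of the lists became 6 and 2, 8 and 2, and 30 and 16 in the same 3 settings, and 2 to 23 and 1 to 14 with 1 array left out. With every kept probe counted on its own, 4 adaptor probes were higher and 2 lower, and 4 sheddase probes were higher and 5 lower. The cause was not tested, except that the filter and the left-out arrays change how many probes or arrays are tested.

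Whether the replicate numbers pair the arrays is not known. Deviations from the group means of same-numbered arrays correlated at -0.06, -0.13 and -0.30. By these deviations GFP 1 was closest to SNRK 3, GFP 2 to SNRK 1 and GFP 3 to SNRK 2. Deviations within a group are tied to each other, so these values cannot decide whether the arrays were paired. With the replicate block, 374 probes were higher and 357 lower, with 7 and 1 genes of the lists. In the labels, samples of the 2 groups share only a number.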
